A study of Homo sapiens with 4 samples.

Results

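The genes described here encode the interleukin 6 (IL6) receptor chains, the Janus kinases (JAKs) and the transcription factor STAT3 that act below them, 2 suppressors of cytokine signalling (SOCS) and 2 PIM kinases. They are the 10 genes IL6R, IL6ST, JAK1, JAK2, TYK2, STAT3, SOCS1, SOCS3, PIM1 and PIM2, chosen by name from the 60682 genes used. Their RNA was counted in the human cell line JJN3, grown from a multiple myeloma, a cancer of plasma cells, after transduction with a short hairpin RNA (shRNA) against the kinase WNK1 or with the NS shRNA, taken here as the control (the labels do not spell out NS). Each group held 2 libraries of total RNA. All cells grew in a medium of 40% DMEM, 40% IMDM and 20% fetal bovine serum at 37 °C and 10% CO2, and the labels name no cytokine treatment. Only 1 line was used, the hairpin sequence is not given in the sources used here, and whether replicates came from separate transductions or cultures is not stated in the labels.

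IL6 binds the receptor chain IL6R, and the pair then engages gp130, the signalling chain encoded by IL6ST, which is shared by the receptors of several other cytokines. JAK1, JAK2 and TYK2 sit on the tail of gp130 and phosphorylate STAT3, which enters the nucleus and switches on target genes. SOCS1 and SOCS3 are among these targets and act as brakes, SOCS3 by binding gp130 and the kinases and SOCS1 by blocking the kinases. PIM kinases are also targets of STAT factors, need no further activation once made, and support survival and protein synthesis. In myeloma the pathway is known as a growth and survival signal that marrow stromal cells provide.

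Transcripts of both SOCS brakes were higher in shWNK1 than in NS cells, SOCS3 3.41-fold and SOCS1 2.15-fold. The receptor chains went opposite ways, IL6ST 1.62-fold higher and IL6R 1.46-fold lower. PIM1 was 1.59-fold lower, while PIM2, by far the most abundant of the 10 per length, was not called. STAT3 was 1.13-fold higher, a call that did not hold in 7 of 12 alternative settings, and none of JAK1, JAK2 and TYK2 was called. In all, 4 of the 10 rose and 2 fell, at an adjusted p under 0.05 in edgeR's quasi-likelihood test, the rule for every call here. Over all 14864 genes tested, 18.5% rose and 20.2% fell. The 2 groups did not overlap for 8 of the 10, against 68.4% of all genes tested. The median log2 fold change was 0.15 over the 10 and 0.01 over all genes tested. RNA came from bulk cells, so a change in every cell and a larger change in some cells cannot be told apart.

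**Figure D1:**
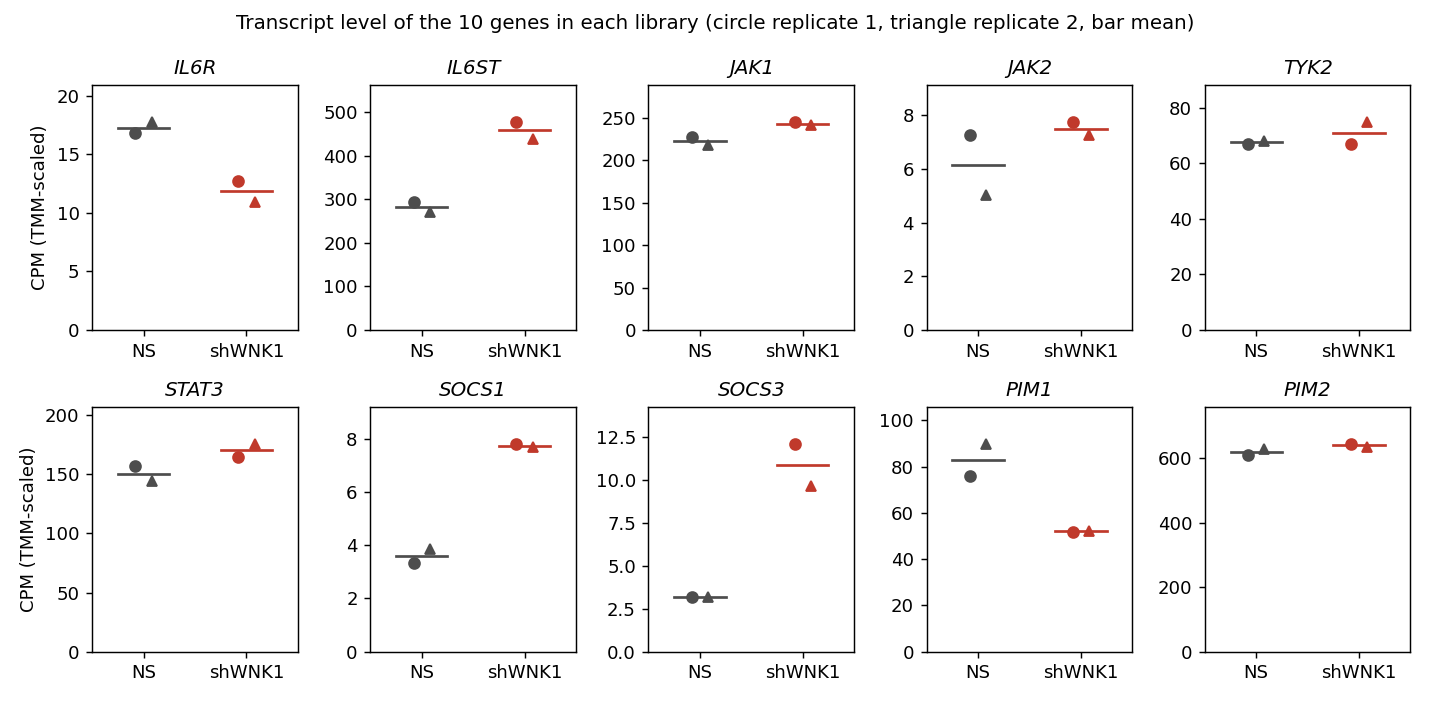
Level of each gene in CPM (counts per 1000000 counts of the TMM-scaled library; linear axis from 0) in the 2 NS libraries (grey) and the 2 shWNK1 libraries (red), with circles for replicate 1, triangles for replicate 2 and bars for group means. SOCS1, SOCS3 and IL6ST stood higher in both shWNK1 libraries, IL6R and PIM1 lower, and the groups overlapped for JAK2 and TYK2.

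Libraries held 16973521 to 20164122 counts, and all 10 genes passed the filter on low counts, the lowest value being the 54 counts of SOCS3 in each NS library. WNK1 itself had 325 and 403 counts with its hairpin against 4911 and 4148 with NS, 13.9-fold less and the direction the labels call for. All 12 plasma cell markers were expressed, at a summed 2893 CPM in each shWNK1 library and 2787 and 2764 CPM in the NS pair. Yet 4 of them rose and 7 fell, so 91.7% were called, against 38.8% of all genes tested. The near-equal sums cover changes in both directions. SLAMF7 was 7.77-fold higher and SDC1 2.50-fold lower in shWNK1 cells, both named after their values were seen. Markers of T and NK (9 genes), myeloid (8), stromal (7) and erythroid cells (5) had at most 10 counts in any library, and their summed levels were at most 1.42 CPM. Of 7 mature B cell markers, 5 had at most 5 counts, including MS4A1 and CD22 at 0, and PAX5 and CIITA were expressed. Mitochondrially encoded transcripts took 5.82% and 6.02% of the counts in shWNK1 libraries and 4.93% and 4.58% in NS libraries. The part of this difference in the results was not tested.

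The sequences shown next are the places in the 3′ UTRs of the 10 genes that hold the 6-base word AGTATC, a word taken from earlier work on these data. Its share among falling and rising genes was not computed here. All 10 genes have an annotated 3′ UTR in GENCODE v29, and 3 of them hold the word, against 21.6% of 19124 genes searched. The longest 3′ UTR had 4070 bases for IL6R, 1333 for JAK1 and 438 for SOCS1, and a median of 1083 over the genes searched. The shares were not matched for this length. Capitals mark the word and lower case its neighbours in the UTR, read 5′ to 3′ along the transcript on hg38. The IL6R site spans chr1:154465984-154466013 on the plus strand, the JAK1 site chr1:64834078-64834107 on the minus strand and the SOCS1 site chr16:11254526-11254555 on the minus strand.
IL6R: ggtgaataatacAGTATCtcagggcctggt
JAK1: ccctcaaatttcAGTATCtatacagtacta
SOCS1: ttacatatacccAGTATCtttgcacaaacc
Of these 3 genes IL6R fell, SOCS1 rose and JAK1 was not called. PIM1, the other gene that fell, does not hold the word in its longest annotated 3′ UTR of 1335 bases, nor does IL6ST in 7641 bases.

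IL6R encodes the chain that binds IL6, and a form without its membrane anchor also circulates. The gene (ENSG00000160712.13) lies on the plus strand of chromosome 1 from 154405193 to 154469450 (hg38, as for all positions). It gave 222 and 225 counts with the WNK1 hairpin and 287 and 300 with NS, which is 12.73 and 10.95 CPM against 16.8 and 17.7 CPM. Both shWNK1 libraries were lower than both NS libraries, with log2 ratios of -0.70 to -0.40 over the 4 pairs of libraries. The group means were 11.8 ± 1.26 and 17.3 ± 0.637 CPM (SD, n = 2), a log2 fold change of -0.55 (SE 0.148, edgeR adjusted p = 0.0033). The call ended without shWNK1 replicate 2, the lower of the pair (log2 -0.45, edgeR adjusted p = 0.10).

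IL6ST, the gp130 gene (ENSG00000134352.20, chromosome 5, 55935095 to 55995022, minus strand), stood at 477 and 439.5 CPM under the WNK1 hairpin, compared with 293.5 and 270.6 CPM under NS. The groups were far apart compared with the gap within either. With means of 458 ± 26.5 and 282 ± 16.2 CPM, the log2 fold change was 0.70 (SE 0.061, edgeR adjusted p = 5.8e-11), and it ranged from 0.64 to 0.76 over the alternatives. Of the bases counted for IL6ST, 7.88% are shared with an opposite-strand gene, ENSG00000262211, which had 0 counts in every library. Under the settings in the file header, reads that overlap 2 genes go uncounted.

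Compared per length, as CPM divided by the counted exon length in kilobases (RPKM), the gp130 gene outweighed the binding chain in every library. IL6ST had a mean of 45.3 ± 2.62 RPKM with the WNK1 hairpin and 27.9 ± 1.60 RPKM with NS. The matching means of IL6R were 1.83 ± 0.195 and 2.68 ± 0.0988 RPKM. Dividing IL6ST by IL6R gave 23.9 and 25.6 for shWNK1 replicates 1 and 2, against 11.1 and 9.74 for the NS replicates. IL6ST was at the 87.8th to 94.4th percentile of tested genes per length and IL6R at the 32.4th to 41.9th.

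Ligands of the gp130 family were scarce or undetected. IL6 had 0 counts in all 4 libraries, which allows up to 3 counts, or 0.146 to 0.177 CPM, in each. Of 10 ligand or ligand-partner genes listed, 7 were too low to test, 3 of them (IL6, CTF1 and IL27) at 0 throughout. No ligand gene that was tested was called, CLCF1 having 10 to 20 counts and CNTF 21 to 39. Among the other gp130-type receptor chains, IL27RA averaged 43.9 ± 1.09 CPM with the WNK1 hairpin and 45.4 ± 0.0868 CPM with NS (log2 -0.05, 95% interval -0.24 to 0.14, edgeR adjusted p = 0.716). IL11RA and LIFR had 14 to 37 counts and were not called, and OSMR and CNTFR were too low to test. These single genes were named after their values were seen, apart from IL6.

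Of 6 listed genes that act on IL6R or its release, 5 were tested and 4 fell, beside 20.2% of all genes tested, with a median log2 fold change of -0.43. Against a fold change of 1.5, 0 of them fell. ADAM17, the protease that cuts IL6R and many other proteins from the cell surface, averaged 30.2 ± 2.94 CPM with the WNK1 hairpin, against 51.2 ± 1.17 CPM with NS (log2 -0.76, SE 0.099, edgeR adjusted p = 1.9e-07). ERAP1, an aminopeptidase of the endoplasmic reticulum that has been linked to IL6R shedding, was at 60.4 ± 0.0724 and 98.9 ± 4.86 CPM (log2 -0.71, SE 0.077, edgeR adjusted p = 5.3e-09). The remaining falls, named after their values were seen, were those of ADAM10, another shedding protease (log2 -0.32), and of RHBDF2, which carries ADAM17 to the surface (-0.43). SORL1, a sorting receptor also named after its value was seen, was not called (0.16, edgeR adjusted p = 0.107). With upper-quartile factors, and without NS replicate 1, 1 gene of this list rose.

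**Figure D2:**
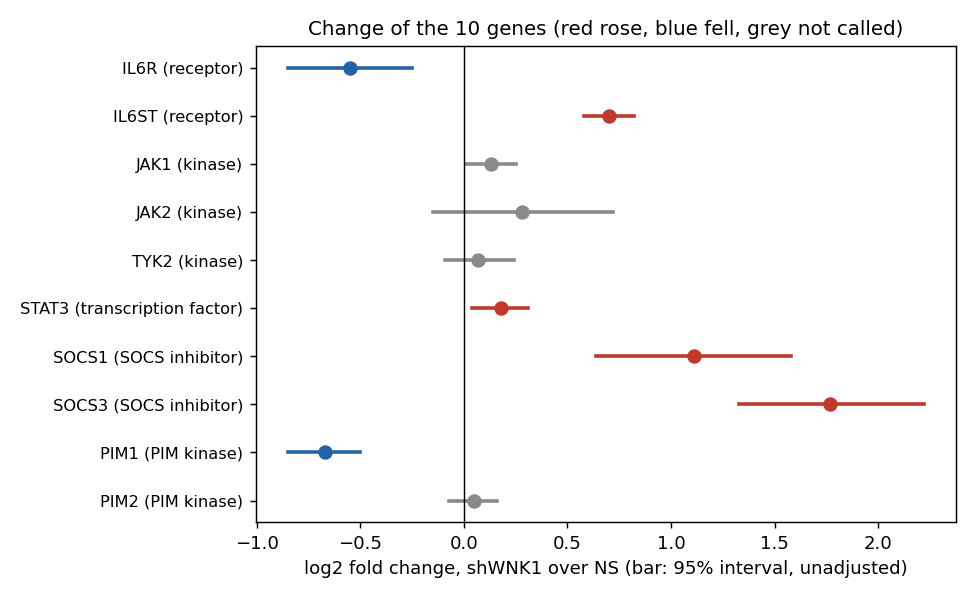
Log2 fold change of each gene, shWNK1 over NS (points), with its unadjusted 95% interval (bars), for genes that rose (red), fell (blue) or were not called (grey). SOCS3 at 1.77 and SOCS1 at 1.11 lay farthest from 0, PIM1 at -0.67 and IL6R at -0.55 were the only genes below 0, and the interval of JAK2 was among the widest.

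The 3 kinases of the receptor were not called. JAK1 (ENSG00000162434.13, chromosome 1, 64833229 to 65067754, minus strand) was measured at 244.8 and 241.9 CPM with the WNK1 hairpin and at 227 and 218.5 CPM with NS. Both shWNK1 libraries were thus the higher by a small margin, a log2 fold change of 0.13 (95% interval 0.01 to 0.25, edgeR adjusted p = 0.091). It was called with upper-quartile factors (edgeR adjusted p = 0.0247) and without NS replicate 1 (0.0256). JAK1 shares 2.46% of its counted bases with other genes, LINC01359 and RAVER2.

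TYK2 (ENSG00000105397.14, chromosome 19, 10350529 to 10380572, minus strand) stood at 67.0 and 74.7 CPM with the WNK1 hairpin, next to 67.0 and 68.0 CPM with NS. Its groups overlapped, shWNK1 replicate 2 standing alone above the rest, and the log2 fold change was 0.07 (95% interval -0.09 to 0.24, edgeR adjusted p = 0.528). JAK2 (ENSG00000096968.14, chromosome 9, 4984390 to 5129948, plus strand) was the scarcest of the 10 genes per length, with 135 and 149 counts for shWNK1 and 124 and 85 counts for NS. Its levels of 7.74 and 7.25 CPM against 7.27 and 5.02 CPM overlapped, NS replicate 2 being the low one. The log2 fold change of 0.28 had a 95% interval of -0.15 to 0.72 (edgeR adjusted p = 0.317). It was 0.57 without NS replicate 1 (edgeR adjusted p = 0.0723) and 0.05 without NS replicate 2 (0.907).

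Per length, JAK1 led the kinases, with 17.3 to 19.4 RPKM over the 4 libraries. TYK2 followed at 10.05 to 11.2 RPKM, and JAK2 was at 0.635 to 0.979 RPKM. The order was the same in every library, JAK1 having 1.70 to 1.93 times the level of TYK2 and 19.6 to 27.3 times that of JAK2. JAK3, the fourth kinase, which serves receptors with the common gamma chain IL2RG and is not a kinase of gp130, rose by 0.62 on the log2 scale, its mean going from 33.5 ± 0.771 CPM with NS to 51.6 ± 2.48 (edgeR adjusted p = 2.8e-06). Its share of the summed RPKM of the 4 kinases was 22.7% and 21.1% with the WNK1 hairpin and 16.4% in each NS replicate.

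STAT3 (ENSG00000168610.14, chromosome 17, 42313324 to 42388568, minus strand) reached 164.7 and 175.6 CPM with the WNK1 hairpin and 156.8 and 144 CPM with NS. The groups did not overlap, but the nearest libraries were 0.07 apart on the log2 scale. The means were 170.2 ± 7.72 and 150.4 ± 9.11 CPM, a log2 fold change of 0.18 (SE 0.066, edgeR adjusted p = 0.030). The call ended with DESeq2 (adjusted p = 0.0801), with no filter on low counts (0.0568) and with the replicate number as a block (0.0623). It ended too on leaving out the first (0.0888) or the second (0.392) shWNK1 replicate or the second NS replicate (0.123), and against a fold change of 1.5. The direction was upward in all 12 alternatives.

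Of the 7 other JAK and STAT genes, 5 rose, 1 fell and 1 was not called, with a median log2 fold change of 0.48. Over all genes tested, 18.5% rose and 20.2% fell. Against a fold change of 1.5 the list held 1 rise and 0 falls. STAT4, which conveys interleukin 12 signals, rose to 60.7 ± 3.50 CPM against 23.1 ± 0.870 in NS cells (log2 1.39, edgeR adjusted p = 4.7e-13). STAT2 (log2 0.48) and STAT5A (1.05), both named after their values were seen, rose as well. STAT6, the factor of interleukin 4, fell by 0.35 (edgeR adjusted p = 2.2e-04; 0.0581 without shWNK1 replicate 1). Without shWNK1 replicate 2 the list held 3 rises.

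SOCS3 had the largest change of the 10 genes. The gene (ENSG00000184557.4, chromosome 17, 78356778 to 78360077, minus strand) gave 211 and 199 counts with the WNK1 hairpin and 54 in each NS library, or 12.1 and 9.68 CPM against 3.17 and 3.19 CPM. Every shWNK1 library stood at least 1.60 above every NS library on the log2 scale. The means were 10.9 ± 1.71 and 3.18 ± 0.0177 CPM, with a log2 fold change of 1.77 (SE 0.218, edgeR adjusted p = 6.8e-08). Only 1.75% of tested genes had a larger change in either direction, and SOCS3 was the sole one of the 10 called against a fold change of 1.5 (edgeR adjusted p = 3.8e-05).

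SOCS1 (ENSG00000185338.6, chromosome 16, 11254408 to 11256204, minus strand) gave 136 and 158 counts with the WNK1 hairpin, against 57 and 65 with NS. Its levels were 7.80 and 7.69 CPM against 3.34 and 3.84 CPM, so that the groups did not overlap. The log2 fold change was 1.11 (SE 0.231, edgeR adjusted p = 2.3e-04), and 6.90% of tested genes changed more. Against a fold change of 1.5 the adjusted p was 0.0755.

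Per length the 2 brakes lay close together in shWNK1 cells, SOCS3 at 4.425 and 3.54 RPKM and SOCS1 at 4.34 and 4.28 RPKM. In NS cells SOCS1, at 1.86 and 2.14 RPKM, was above SOCS3, at 1.16 and 1.17 RPKM. The SOCS3 level divided by that of SOCS1 came to 1.02 and 0.828 with the WNK1 hairpin and to 0.623 and 0.546 with NS. Of the summed RPKM of all 8 SOCS family genes, SOCS1 and SOCS3 together made up 20.4% and 19.3% with the WNK1 hairpin and 8.73% and 10.3% with NS.

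The promoter of SOCS1 is shown because it holds a match to a regulatory motif and its gene rose. Promoter windows of 300 bases, from 250 before to 50 after the start site, were taken from RefSeq (GRCh38.p14), which holds 16 for the 10 genes. The STAT motif TTCNNNGAA, which reads the same on both strands, was in none of the 16 windows and in 7.66% of all 35116 RefSeq windows. The motif made of GAAA, any 2 bases and GAAA, known from sites of interferon regulatory factors (IRFs), was searched on both strands after the sequences had been seen. It was in the SOCS1 window alone among the 16, and in 3.57% of all windows. The SOCS1 window spans chr16:11256155-11256454 on the minus strand, and capitals mark the match, which begins 113 bases before the start site.
SOCS1: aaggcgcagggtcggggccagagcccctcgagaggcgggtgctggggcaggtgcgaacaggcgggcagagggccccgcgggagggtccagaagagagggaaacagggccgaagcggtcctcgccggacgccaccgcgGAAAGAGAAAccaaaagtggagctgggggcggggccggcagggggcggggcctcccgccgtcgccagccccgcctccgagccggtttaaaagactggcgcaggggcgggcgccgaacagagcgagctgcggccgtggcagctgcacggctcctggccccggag
A match of letters is not evidence that a factor binds there, and a missing match says only that the letters are not in the window. For SOCS3 neither window (78360876 to 78361175 and 78359618 to 78359917) contains 78360077, the first base of the gene as it was counted.

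Other members of the SOCS family changed less and in both directions. Of 6, 2 rose and 2 fell, beside 18.5% and 20.2% of all genes tested. Against a fold change of 1.5 there were 0 rises and 0 falls. For SOCS6 the rise was 0.47 on the log2 scale (edgeR adjusted p = 8.0e-05). SOCS7 rose by 0.23 (edgeR adjusted p = 0.0332; 0.0522 with the replicate number as a block, 0.0967 with DESeq2, 0.0617 with no filter on low counts, and 0.101 to 0.31 without either shWNK1 library or NS replicate 2). SOCS2, a brake on growth hormone signals, fell by 0.38 (edgeR adjusted p = 0.0189; 0.0646 with DESeq2, 0.247 without shWNK1 replicate 2 and 0.0679 without NS replicate 2). SOCS5 fell by 0.37 (edgeR adjusted p = 0.0277; 0.0897 with DESeq2, 0.0506 with upper-quartile factors, 0.398 without shWNK1 replicate 2 and 0.0968 without NS replicate 1).

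Beyond the SOCS family, 5 of 20 PIAS proteins, phosphatases and adaptors of the pathway rose and 3 fell, with a median log2 fold change of 0.03. That is 40.0% called, near the 38.8% of all genes tested, of which 18.5% rose and 20.2% fell. Against a fold change of 1.5 this list held 0 rises and 1 fall. PTPN1, a phosphatase of JAK2 and TYK2, rose by 0.34 (SE 0.078, edgeR adjusted p = 6.6e-04), and STAM2, an endosomal sorting adaptor, rose by 0.64 (SE 0.125, edgeR adjusted p = 9.4e-05). The receptor phosphatase PTPRJ fell, with means of 21.6 ± 1.13 CPM against 45.5 ± 2.12 CPM in NS (log2 -1.07, edgeR adjusted p = 8.7e-10). SH2B3, an adaptor that restrains JAK2, fell by 0.33 on the log2 scale (edgeR adjusted p = 4.2e-04). The other rises, named after their values were seen, were those of PIAS3, an inhibitor of STAT3 (0.40), PIAS4 (0.28) and the phosphatase PTPRC (0.67), and the remaining fall was that of ELOC (-0.33). Without either shWNK1 library there were 3 rises.

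PIM1 (ENSG00000137193.14, chromosome 6, 37170152 to 37175428, plus strand) gave 905 and 1068 counts with the WNK1 hairpin, against 1292 and 1518 with NS. The shWNK1 pair was almost identical, at 51.9 and 52.0 CPM, while the NS libraries stood apart at 75.8 and 89.7 CPM, both above it. The means were 51.9 ± 0.0512 and 82.7 ± 9.87 CPM, a log2 fold change of -0.67 (SE 0.086, edgeR adjusted p = 1.6e-07), which was -0.79 to -0.54 over the alternatives.

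PIM2 (ENSG00000102096.9, chromosome X, 48913182 to 48919024, minus strand) gave 11246 and 13091 counts with the WNK1 hairpin and 10426 and 10670 with NS. These are 644.8 and 636.9 CPM against 611.3 and 630.6 CPM, groups that just fail to overlap. With a log2 fold change of 0.05 (95% interval -0.07 to 0.16, edgeR adjusted p = 0.561), its interval does not reach the -0.67 of PIM1. The difference between the changes of the 2 genes was not tested.

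**Figure D3:**
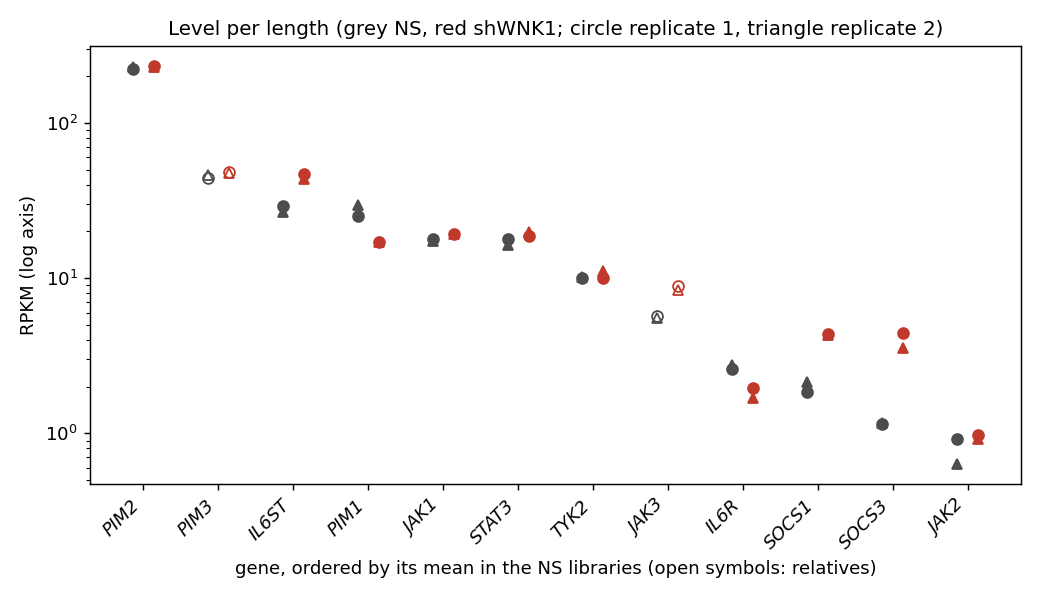
Level per length (RPKM, log axis) of the 10 genes (filled symbols) and of JAK3 and PIM3 (open symbols) in NS (grey) and shWNK1 (red) libraries, ordered by the NS mean. PIM2 stood above 221 RPKM in all 4 libraries and JAK2 below 1 RPKM, and PIM1 changed places with JAK1 and STAT3 between the groups.

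PIM2 was the most abundant of the 10 genes per length in every library, at 221.4 to 233.5 RPKM, above 99.06% to 99.26% of tested genes. PIM1 was at 17.1 RPKM in both shWNK1 libraries and at 27.3 ± 3.26 RPKM in NS cells. PIM2 thus had 13.64 and 13.45 times the level of PIM1 with the WNK1 hairpin and 8.86 and 7.71 times with NS. PIM3, the remaining family member, stood between them at 44.0 to 48.3 RPKM and was not called (log2 0.09, 95% interval -0.05 to 0.24, edgeR adjusted p = 0.314). In the family's summed RPKM, PIM1 held 5.73% and 5.80% with the WNK1 hairpin and 8.61% and 9.74% with NS, and PIM2 held 75.15% to 78.12% throughout.

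The order of the 10 genes per length in NS cells was PIM2, IL6ST, PIM1, JAK1, STAT3, TYK2, IL6R, SOCS1, SOCS3 and JAK2. IL6ST (27.9 ± 1.60 RPKM) and PIM1 (27.3 ± 3.26) did not differ beyond the spread between libraries, nor did JAK1 (17.65 ± 0.472) and STAT3 (17.1 ± 1.03). That spread leaves out any error from dividing by the counted exon length. In shWNK1 cells IL6ST (45.3 ± 2.62) stood clear of the next genes, STAT3 (19.3 ± 0.876), JAK1 (19.3 ± 0.158) and PIM1 (17.1 ± 0.0169). SOCS1 (4.31 ± 0.0435) and SOCS3 (3.98 ± 0.625) were above IL6R (1.83 ± 0.195), below which only JAK2 (0.948 ± 0.0439) remained.

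Genes listed as STAT3 targets went both ways. Of 36 listed, 32 were tested, 15 rose, 7 fell and 10 were not called, with a median log2 fold change of 0.26. Among all genes tested 18.5% rose and 20.2% fell, with a median of 0.01. Against a fold change of 1.5 the list of STAT3 targets held 3 rises and 0 falls. SGK1, a survival kinase, rose to 22.3 ± 1.47 CPM against 6.27 ± 0.00668 in NS cells (log2 1.83, edgeR adjusted p = 3.0e-11). IRF1, an interferon regulatory factor and a target of STAT factors, rose to 35.7 ± 2.67 CPM against 18.04 ± 0.191 (log2 0.99, edgeR adjusted p = 3.2e-08). MYC, the growth regulator, fell to 469 ± 22.9 CPM against 755.8 ± 0.0504 (log2 -0.69, edgeR adjusted p = 1.6e-11). MCL1, a survival factor on which myeloma cells often depend, fell to 291 ± 1.41 CPM against 399 ± 11.2 (log2 -0.45, edgeR adjusted p = 1.1e-07). Without shWNK1 replicate 1 the list held 4 falls.

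Among PIM3 and the known PIM substrates, 6 of 15 rose and 4 fell, with a median log2 fold change of 0.09. The share called was 66.7%, against 38.8% of all genes tested (18.5% rose and 20.2% fell). Against a fold change of 1.5 the list held 1 rise and 1 fall. The cell cycle inhibitors CDKN1A (log2 1.77, SE 0.065, edgeR adjusted p = 2.7e-20) and CDKN1B (0.65, SE 0.083, edgeR adjusted p = 1.3e-07) rose. CDC25A, a phosphatase that drives the cell cycle, fell to 31.3 ± 1.96 CPM against 110.0 ± 0.322 (log2 -1.81, edgeR adjusted p = 8.0e-18). The translation repressor EIF4EBP1 fell by 0.34 on the log2 scale (edgeR adjusted p = 1.3e-04). There were 2 falls with upper-quartile factors, with the replicate number as a block, and without either shWNK1 library. PIM kinases act on the proteins of these genes, which RNA levels do not report.

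Other receptor chains that signal through JAKs were mixed. Of 22 listed, 16 were tested, 4 rose and 3 fell, with a median log2 fold change of 0.11. In this list 43.8% of tested genes were called, against 38.8% of all genes tested (18.5% rose and 20.2% fell). Against a fold change of 1.5 it held 1 rise and 2 falls. CSF2RB, the common beta chain of the interleukin 3, interleukin 5 and GM-CSF receptors, rose to 83.8 ± 1.05 CPM against 41.2 ± 2.27 (log2 1.02, edgeR adjusted p = 1.4e-11). The common gamma chain IL2RG rose by 0.45 (SE 0.092, edgeR adjusted p = 1.7e-04), beside IL4R (0.45) and IL12RB1 (0.53), both named after their values were seen. IFNGR1, the binding chain for interferon gamma, fell to 10.7 ± 2.06 CPM against 21.3 ± 2.21 (log2 95% interval -1.31 to -0.69, edgeR adjusted p = 3.0e-06). GHR, the growth hormone receptor, fell to 1.07 ± 0.348 CPM against 3.47 ± 0.813 (log2 -1.70, edgeR adjusted p = 9.3e-04). IFNAR1, named after its value was seen, fell by 0.20 on the log2 scale. The list held 2 falls with DESeq2, with upper-quartile factors, with the replicate number as a block, against a fold change of 1.5, and without either shWNK1 library or NS replicate 1. IL3RA and CSF2RA, partners of CSF2RB also named after their values were seen, had 0 counts in all libraries. Both lie in the pseudoautosomal region, where reads that fit both the X and the Y copy can be lost to a mapping quality minimum, so their levels are not known here.

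**Figure D4:**
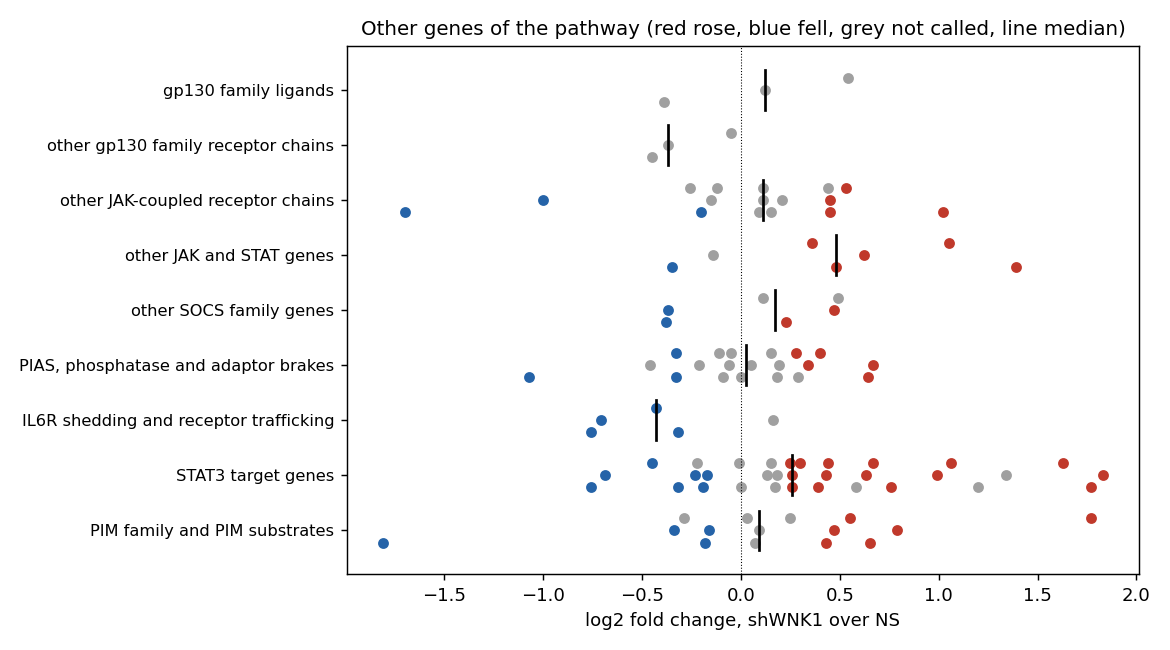
Log2 fold change, shWNK1 over NS, of each tested gene in the 9 lists of other pathway genes (points; red rose, blue fell, grey not called) with the list median (line). The median was 0.48 for the other JAK and STAT genes and -0.43 for the IL6R shedding genes, and the ligands and the other gp130 receptor chains held no called gene.

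Over the 9 lists together, 107 of 127 genes were tested, 37 rose and 24 fell, beside 18.5% and 20.2% of all genes tested. The median log2 fold change was 0.15, beside 0.01 over all genes tested. Against a fold change of 1.5, 6 of them rose and 4 fell.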

How the data were processed

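Raw counts per gene were deposited by the authors, who ran featureCounts (v2.0.0; GENCODE v34; mapping quality of at least 20; strand ignored; reads over 2 genes or with several alignments not counted), per the file headers. The gene length (another number in that table) is the counted exon length, per the file headers. Orders and ratios of genes per length rest on it, and the length of the transcripts present was not measured. Trimmomatic, STAR and hg38 are named in the submitters' processing notes, without versions. The gene broken over 3 lines and 45 Y copies with 0 counts were left out of the 60728 genes listed. All 10 genes matched an identifier through the symbol table.

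The test was that of edgeR (4.0.16, R 4.3.3; filterByExpr, 14864 genes; TMM; robust glmQLFit; two-sided glmQLFTest; 2 residual degrees of freedom; Benjamini-Hochberg), with the group as the only term. CPM is the count per 1000000 TMM-scaled counts. SE is the log2 fold change over the root of F, and 95% intervals use the moderated degrees of freedom, unadjusted. With 2 libraries against 2 an exact permutation test cannot give p below 0.333, so none was used. As nothing says the replicates are separate cultures, p-values measure only how these libraries vary, possibly a technical spread. The limit that a count of 0 allows is 3 counts and covers counting error only.

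The members, lists and tests were chosen with earlier results of these data known. Named genes were the 10, WNK1, IL6, PIM3, MYC, MCL1, SOCS2 and up to 2 rises and 2 falls of smallest p in each list, and others are marked where named. Some genes of the lists are counted but not reported singly here. Alternatives were DESeq2 1.42.0, limma-voom (limma 3.58.1), RLE and upper-quartile factors, 2 other filters (none, or 1 CPM in 2 libraries), a block for the replicate number, a test against a fold change of 1.5, and leaving out each library.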

Additional observations from a re-analysis of the deposited data

How the results depend on the processing

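Of the 10 genes, IL6ST, SOCS1, SOCS3 and PIM1 were called in all of the 12 alternatives, except that IL6ST, SOCS1 and PIM1 were not called against a fold change of 1.5. There the 10 held 1 rise and 0 falls, the other pathway genes 6 rises and 4 falls, and all genes 303 rises and 353 falls. Leaving out 1 library at a time gave 3 to 5 rises and 1 to 2 falls among the 10, and 1632 to 2778 rises and 1964 to 3024 falls over all genes, the fewest falls coming without shWNK1 replicate 1 and the fewest rises without shWNK1 replicate 2. The log2 fold change of TYK2 was -0.02 to 0.15 on leaving out 1 library, the value below 0 being that without shWNK1 replicate 2. No scaling moved the median of all genes by more than 0.044 on the log2 scale. The labels do not say what the replicate numbers stand for, so the main test did not pair samples by them. Column names of same-numbered libraries share a letter (A or B), whose meaning is not given either. Deviations of same-numbered libraries from their group means had r = 0.004 across 14864 genes. With 2 libraries per group, and with counting noise in low genes, this value cannot exclude a pairing. With the replicate number as a block the 10 held 3 rises and 2 falls, STAT3 being the call that ended (edgeR adjusted p = 0.0623), and all genes held 2539 rises and 2804 falls. At 54 to 300 counts, SOCS1, SOCS3, IL6R and JAK2 have SEs of 0.148 to 0.231 on the log2 scale, against 0.056 to 0.086 for the other 6. The log2 fold changes of SOCS1, SOCS3, IL6R and JAK2 are thus the less certain.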
